A study of Mus musculus with 2 samples.

Results

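The genes described here are the mouse secreted protease inhibitors of 3 families, taken as every gene whose symbol begins with Spink, Wfdc or Serpin followed by a number or letter. The rule selected 93 of the 32285 genes of the deposited matrices, of which 13 were Spink, 18 Wfdc and 62 Serpin genes, and it used no measured value. Their levels were followed in the single-cell RNA-seq data of dissociated prostates of C57BL6 males, all wild-type. The ventral lobes gave 1 library, on the version 2 kit of 10x Genomics for 3' ends, and the proximal and periurethral region, next to the urethra, gave another on version 3. The labels give neither the age nor the number of the animals, each region has 1 library, and a regional difference cannot be told apart from one of kit version, so nothing was tested and all intervals are exact 95% intervals that cover counting error only.

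Spink proteins carry Kazal domains, small disulfide-bonded folds that occupy the active site of trypsin-like serine proteases, and Wfdc proteins carry the whey acidic protein domain, found in several inhibitors of elastase-like enzymes. Serpins are larger proteins that trap a protease by a change of shape after it has cut their reactive loop. In male accessory glands such inhibitors are secreted into the seminal fluid together with proteases. The word secreted does not hold for every gene of the rule: the B group of serpins lacks a classical signal peptide and acts largely inside cells, and Serpinh1 is a collagen chaperone of the endoplasmic reticulum without inhibitory activity.

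After filtering, 1988 ventral cells with a median of 25758.5 molecular barcodes (UMIs, which count captured RNA molecules) and 3705 proximal cells with a median of 15260 were kept, and the libraries shared 0 barcodes. Cells were clustered without the inhibitor genes, and clusters were called by the marker list they matched, so the names are rebuilt and mean "-like" throughout. Secretory luminal cells comprised a ventral type with 1538 ventral and 162 proximal cells, a dorsolateral type with 96 and 161, and an anterior type with 380 proximal cells. Proximal luminal-like cells, the duct cells near the urethra, numbered 88 and 1378, and basal-like cells numbered 141 and 909. A list of periurethral markers was the second match of proximal luminal-like clusters of 292 and 147 cells in the proximal library. The ventral cluster of 88 cells had no second match, so this class need not hold the same cells in both libraries. Fibroblast-like cells, the stromal class, numbered 516 in the proximal library, and no ventral cluster was named fibroblast, so stromal levels rest on the proximal library. All 4 ventral-type markers and at least 6 of 7 proximal luminal and basal markers were found in the clusters of those names. The 10 leading genes of the ventral basal-like cluster included the fibroblast marker Dcn, and the 7 fibroblast markers, all with UMIs, summed to 5325 CPM (a gene's UMIs scaled to a total of 1000000 UMIs in each class) there, to 1348 in proximal basal-like cells and to 9086 in fibroblast-like cells.

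The inhibitors made up 23.6% of the UMIs of the ventral library and 2.32% of those of the proximal library. Their share was 25.2% and 18.1% in ventral-type cells, 8.70% and 1.62% in dorsolateral-type cells, 13.0% and 0.217% in the proximal luminal-like class and 0.855% and 0.158% in basal-like cells of the ventral and the proximal library, respectively. It was 0.133% in anterior-type and 0.325% in fibroblast-like cells. Spink1 made up nearly all of it in the ventral library: without Spink1 the share in ventral-type cells was 0.208% and 0.272%. In fibroblast-like cells the Serpin genes supplied most of it, at 2530 CPM against 575 CPM for all Spink and 142 CPM for all Wfdc genes.

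A gene was called detected in a library if at least 50 of its UMIs, at 10 CPM or more, were in 1 of the secretory luminal, proximal luminal-like, basal-like or fibroblast-like classes with at least 50 cells, 4 classes of the ventral and 6 of the proximal library. Other classes, macrophage-like cells among them, did not count. By this rule 9 of 93 inhibitors, 9.68%, were detected in the ventral library and 24 of 93, 25.8%, in the proximal library, against 17.4% and 33.5% of all genes. All 9 of the ventral library were among the 24. These 24 were 5 Spink, 5 Wfdc and 14 Serpin genes. Of the remaining 69, 24 had no UMI in either library and 45 had UMIs but passed in none of these classes, 13 of them with at least 50 UMIs in a library. Of the 23 Serpin genes on chromosome 12, 1 was detected, and of the 14 Wfdc genes of chromosome 2, 3 were. Detected inhibitors numbered 4 to 6 in each class of the ventral library, and 5 in ventral-type, 10 in anterior-type, 11 in dorsolateral-type, 13 in proximal luminal-like, 13 in basal-like and 16 in fibroblast-like cells of the proximal library. The map of levels by class shows which genes these were. The number of all genes detected in each single class is not given here. Differences between classes in the number of detected inhibitors are therefore not read as a property of the inhibitors.

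**Figure D1:**
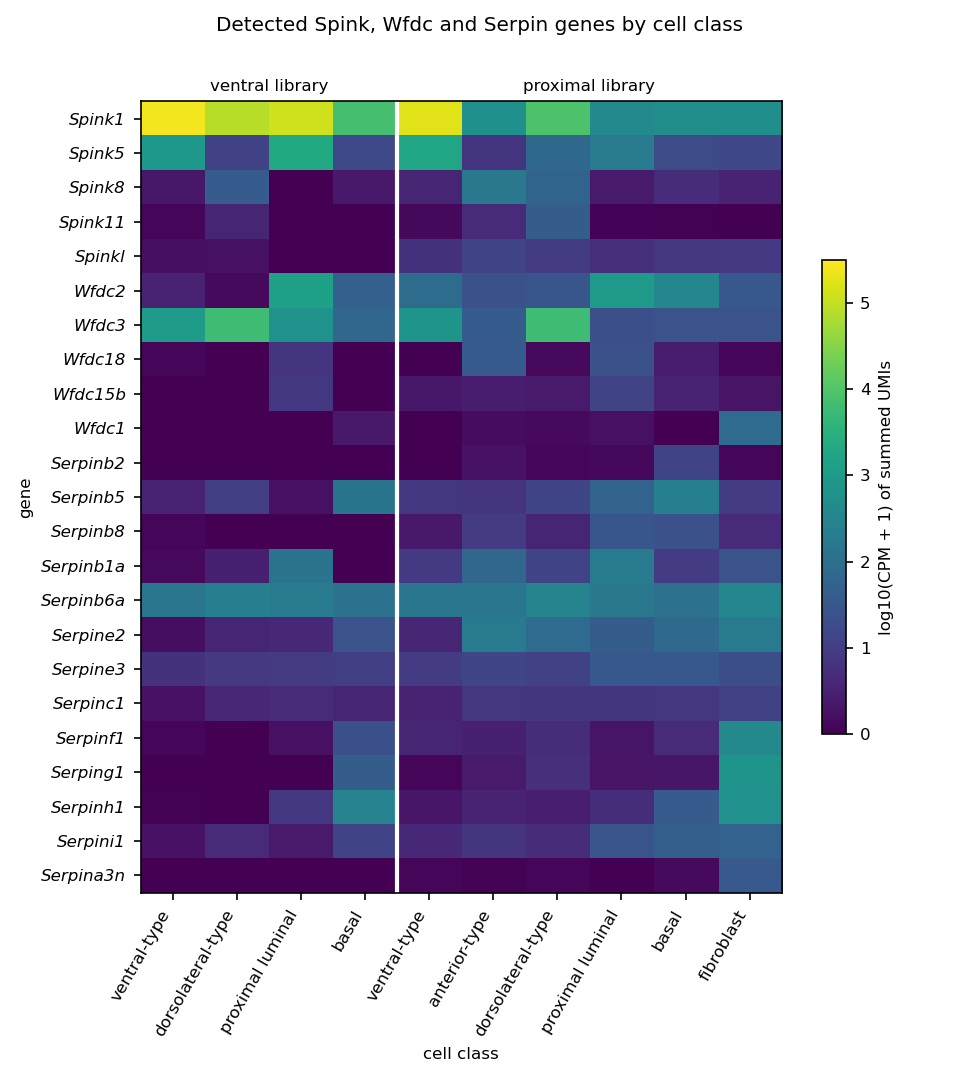
Level of the detected inhibitors described in the text (rows) in 4 classes of the ventral and 6 classes of the proximal library (columns), as log10 of CPM plus 1 of the summed UMIs. Spink1 leads the ventral-type columns of both libraries, Wfdc3 peaks in both dorsolateral-type columns, Wfdc2 in both proximal luminal columns, and Serping1, Serpinh1 and Serpinf1 in the fibroblast column.

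Spink1, the pancreatic secretory trypsin inhibitor, which in the mouse is also a major protein of male accessory gland fluid, was the most abundant inhibitor. It held 250136 CPM (249986 to 250286) in ventral-type cells of the ventral library and 177903 CPM (177643 to 178163) in those of the proximal library. It ranked 1 among all genes in the former and 2 in the latter. Single ventral-type cells of the ventral library gave between 1.26% and 46.4% of their UMIs to Spink1, with a median of 24.2%, and those of the proximal library had a median of 17.4%. Every ventral-type cell had a Spink1 UMI, but so did every dorsolateral-type, proximal luminal-like and basal-like cell of the ventral library. In the proximal library 895 of 909 basal-like and 485 of 516 fibroblast-like cells had one.

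Spink1 differed far more between the libraries outside the ventral-type cells. Dorsolateral-type cells held 80356 CPM in the ventral library, and 47494 CPM in the 66 of 96 cells with at most 2.5% of their UMIs from Sbp, a marker of ventral secretory cells. In the proximal library they held 9162 CPM, 7470 CPM without the cell that gave 20.1% of it, and 3233 CPM in the 155 of 161 cells below the Sbp limit, and the median cell gave 0.0420% of its UMIs to Spink1. Proximal luminal-like cells held 124983 and 385 CPM, and basal-like cells 7732 and 521 CPM. The proximal library held 571 CPM in anterior-type and 549 CPM in fibroblast-like cells. Macrophage-like cells, which were taken as a background class, held 577 CPM there and 91459 CPM in the ventral library, 52.9% of it from 1 cell. Without that cell the latter was 55441 CPM, and in the 28 of 30 cells below the Sbp limit it was 5877 CPM. The same filter left 137 basal-like cells of that library, at 7091 CPM.

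The counts of Spink1 were therefore set beside those of Sbp, the spermine-binding protein. In the proximal library there were 0.518 Spink1 UMIs (0.517 to 0.519) per Sbp UMI in ventral-type cells. The same ratio was 0.504 (0.494 to 0.514) in proximal luminal-like, 0.517 (0.502 to 0.533) in basal-like and 0.495 (0.474 to 0.518) in fibroblast-like cells. In endothelial-like and macrophage-like cells it was 0.505 (0.449 to 0.566) and 0.519 (0.468 to 0.575). These 5 classes thus held both RNAs in nearly the proportion of ventral-type cells. Anterior-type cells stood at 0.594 (0.577 to 0.611) and dorsolateral-type cells farther off, at 0.766 (0.759 to 0.772). The ventral library gave a ratio of 1.10 in ventral-type, 2.42 in dorsolateral-type, 0.908 in basal-like, 0.768 in macrophage-like and 2.31 in proximal luminal-like cells. Among those 88 cells, 24 had over 2.5% of their UMIs from Sbp. The other 64 held 43734 CPM of Spink1, and the median cell of the whole class gave 0.704% of its UMIs to Spink1.

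Spink5, which encodes a multidomain Kazal inhibitor known for restraining kallikreins in skin, was high in ventral-type and in proximal luminal-like cells. It stood at 874 CPM (865 to 883) in ventral-type cells of the ventral library and at 1719 CPM (1694 to 1745) in those of the other. Among proximal luminal-like cells the ventral library showed 2155 CPM (2076 to 2236) but the proximal one 195 CPM (191 to 199). Basal-like cells held 15.2 and 17.1 CPM, close to the 23.1 and 17.3 CPM of macrophage-like cells. Dorsolateral-type cells held 10.8 and 67.5 CPM, the latter with 68.2% of its UMIs from 1 cell and 21.9 CPM without it.

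Spink5 was unevenly spread over the ventral-type cells. At a limit of 0.1% of a cell's UMIs, chosen after the values were seen, 272 of 1538 ventral-type cells of the ventral library lay above it, 17.7% (15.8% to 19.7%), and these held 96.7% of the Spink5 UMIs of the class. Their level was 4871 CPM, against 34.9 CPM in the cells below the limit, and 45 cells lay between 0.05% and 0.2%. Of the proximal library, 48 of 162 cells lay above it, 29.6% (22.7% to 37.3%), with 98.7% of the UMIs, 6090 CPM against 29.9 CPM, and 7 cells near the limit. Median depths of cells above and below were 27548 and 27586.5 UMIs in the former library and 57499.5 and 69485 in the latter. The same limit was passed by 38 of 88 ventral and 77 of 1378 proximal cells of the proximal luminal-like class, and by 0 of 141 and 0 of 909 basal-like cells.

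The cells with much Spink5 were set beside those poor in Sbp. Among ventral-type cells with at most 2.5% Sbp, 4 of 12 were above the Spink5 limit in the ventral library, against 268 of 1526 of the others. For the proximal library these were 9 of 17 and 39 of 145. The 17 proximal cells held 5030 CPM of Spink5 and 1277 CPM of Wfdc2, a gene of the proximal luminal-like class. Doublets were largely still present in both libraries, and their part in these values was not tested. Among proximal luminal-like cells from the ventral lobes, the share above the limit was 28 of 64 in cells poor in Sbp and 10 of 24 in the others.

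Wfdc3, a whey acidic protein gene of chromosome 2, had more of the same ventral-type cells near the limit. Most of its UMIs nevertheless came from the cells above it. Above 0.1% of UMIs lay 433 of 1538 cells of the ventral library, 28.2% (25.9% to 30.5%), with 274 cells between 0.05% and 0.2%, and 31 of 162 cells of the proximal library, with 21 near the limit. In the ventral library the cells above held 84.9% of the Wfdc3 UMIs of the class, at 3190 CPM against 215 CPM below. In the proximal library they held 87.4%, at 2547 CPM against 117 CPM. Both Spink5 and Wfdc3 were above their limits in 50 ventral cells, 18.4% of the cells with much Spink5 and 11.5% of those with much Wfdc3. In the proximal library 6 cells had both. A Wfdc3 level above the limit was found in 30.3% of the ventral cells without much Spink5.

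**Figure D2:**
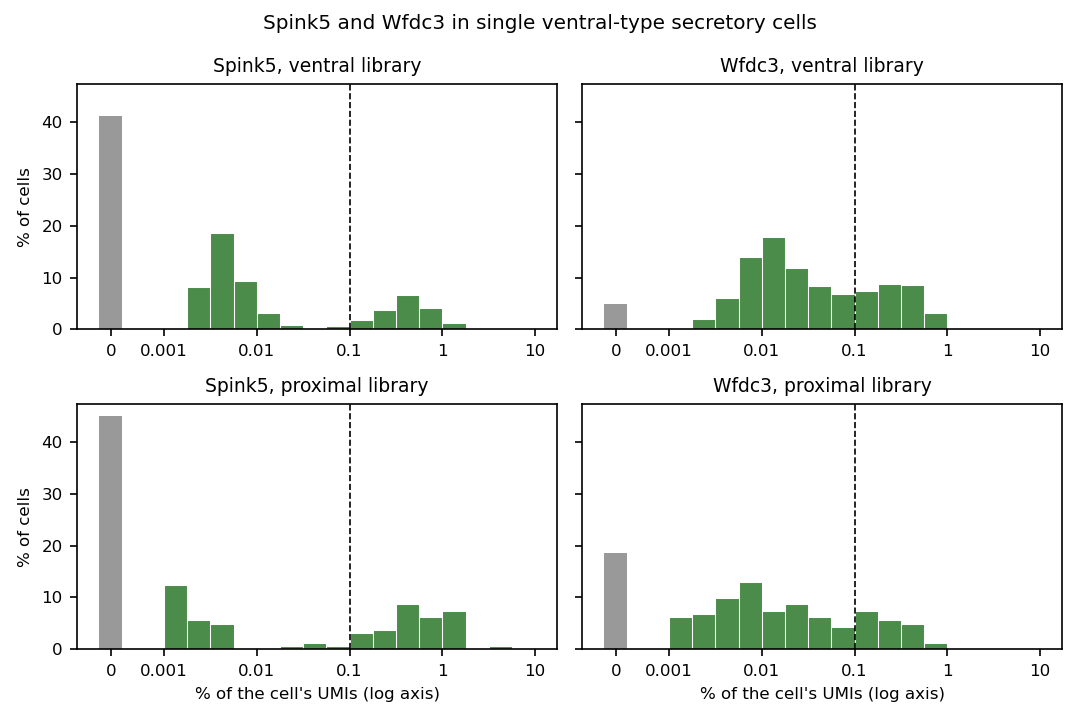
Share of ventral-type secretory cells (vertical axis, percent) by the percent of a cell's UMIs that came from Spink5 (left) or Wfdc3 (right), on a log axis, with cells at 0 in grey and the 0.1% limit dashed. The upper row is the ventral and the lower row the proximal library. Spink5 forms a high and a low set of cells with few between (45 of 1538 ventral cells near the limit). Wfdc3 has more cells near the limit (274 of 1538), and in the ventral library it also shows a second peak above it.

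The secretory luminal types were then compared with each other, which asks how lobes differ in the inhibitors they carry. A gene counted as past the fold if its CPM plus 10 differed at least 4-fold, among genes with at least 50 UMIs over both classes. In the proximal library 4 of 20 inhibitors tested were higher in dorsolateral-type than in ventral-type cells, where 1% of all genes were, and 2 were lower, against 0.209% of all genes. Wfdc3, Spink8, Serpine2 and Spink11 were higher, and Spink1 and Spink5 lower. In the ventral library 2 of 13 were higher, Wfdc3 and Spink8, against 0.357% of all genes, and 1 was lower, Spink5, against 0.128%. There the log2 ratio of Spink8 went from 2.13 to 1.97 under a stricter cell filter, at least 1000 genes and at most 5% mitochondrial UMIs, and to 1.98 with the inhibitors kept among the genes used for clustering, either of which ended the call. The median of all genes stood at 0.36 on the log2 scale in the proximal comparison, and the median of the tested inhibitors at 0.25.

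Wfdc3 reached nearly the same level in dorsolateral-type cells of both libraries, 6315 CPM (6217 to 6415) and 6340 CPM (6293 to 6387). Ventral-type cells held 1031 CPM (1021 to 1041) and 703 CPM (687 to 719). The level in dorsolateral-type cells was thus 6.13-fold (6.02 to 6.24) that of ventral-type cells in the ventral library and 9.02-fold (8.80 to 9.24) in the proximal library. After each cell was thinned to 1000 UMIs, 99.0% (94.3% to 100%) of dorsolateral-type cells of the ventral library and 88.1% (82.1% to 92.7%) of those of the proximal library had a Wfdc3 UMI, against 2 of 30 and 3 of 78 macrophage-like cells. Before thinning the shares were 100% and 96.9%, against 23.3% and 29.1%. Median depths before thinning were 24544 and 66390 UMIs in dorsolateral-type and 3751 and 11922 in macrophage-like cells. Proximal luminal-like cells held 674 CPM in the ventral but 21.4 CPM in the proximal library, and the former was 251 CPM in the 64 cells with at most 2.5% Sbp. Anterior-type cells held 38.1 CPM, basal-like cells 64.8 and 24.1 CPM and fibroblast-like cells 24.8 CPM, near the 75.1 and 26.4 CPM of macrophage-like cells.

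Spink8, another Kazal-type gene (chr9:109812280-109826633, GRCm38), marked the anterior and dorsolateral types. Anterior-type cells held 159 CPM (153 to 166), and dorsolateral-type cells 39.2 CPM (31.8 to 47.7) and 56.8 CPM (52.4 to 61.4), ventral library first. Ventral-type cells held 1.22 and 2.77 CPM. The level was 57.5-fold (39.7 to 86.8) higher in anterior-type than in ventral-type cells, and dorsolateral-type cells exceeded ventral-type cells 32.2-fold (22.8 to 46.0) and 20.5-fold (14.0 to 31.1) in the respective libraries. No other class of the figure of intervals passed 4 CPM. Within the anterior type the 3 clusters held 136, 252 and 12.7 CPM, the lowest in a cluster of 50 cells led by histone and uncharacterised transcripts.

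Serpine2 (chr1:79794197-79861180), a serpin that inhibits thrombin and urokinase and is known from seminal vesicle, followed Spink8 within the proximal library. Anterior-type cells held 196 CPM (189 to 204) and dorsolateral-type cells 81.6 CPM (76.3 to 87.1), which was 68.4-fold (47.5 to 102) and 28.4-fold (19.6 to 42.7) above the 2.87 CPM of ventral-type cells. Unlike Spink8, it was as high in fibroblast-like cells, at 190 CPM (179 to 202), and present in basal-like cells at 76.6 CPM. Dorsolateral-type cells of the ventral library held 2.80 CPM (1.13 to 5.77).

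Spink11, a short Kazal gene, was detected in dorsolateral-type cells of the proximal library, at 41.4 CPM (37.7 to 45.4), 22.0% of it from 1 cell. Ventral-type cells had 3 UMIs, so that the ratio of 139 has an interval of 47.4 to 679. Without that cell the level was 32.4 CPM. Dorsolateral-type cells of the ventral library had 7 UMIs, 2.80 CPM.

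Between anterior-type and ventral-type cells, 4 of 21 inhibitors were higher, where 1.79% of all genes were, and 3 were lower, against 0.447%. Spink8, Serpine2, Wfdc18 and Serpinb1a were higher, and Spink1, Spink5 and Wfdc3 lower. Wfdc18, which encodes a small secreted proteinase inhibitor, rests on 1 cell: that cell gave 98.7% of the 458 UMIs, and the level was 35.2 CPM with it and 0.463 CPM without it, which ends the call. Serpinb1a, an intracellular inhibitor of neutrophil proteases, held 63.2 CPM against 7.53 CPM, 8.40-fold (6.63 to 10.8). With totals that leave out genes above 1% of UMIs, the median of all genes moved from 0.48 to -0.09 on the log2 scale, the split became 3 higher and 4 lower, and Serpinb1a fell under the fold, at 1.57. With each cell scaled to the same total it was 2 higher and 4 lower. For dorsolateral-type cells, totals without genes above 1% moved the median of all genes from 0.36 to -0.08 in the proximal library and gave 4 higher and 3 lower, and 2 and 2 in the ventral library.

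**Figure D3:**
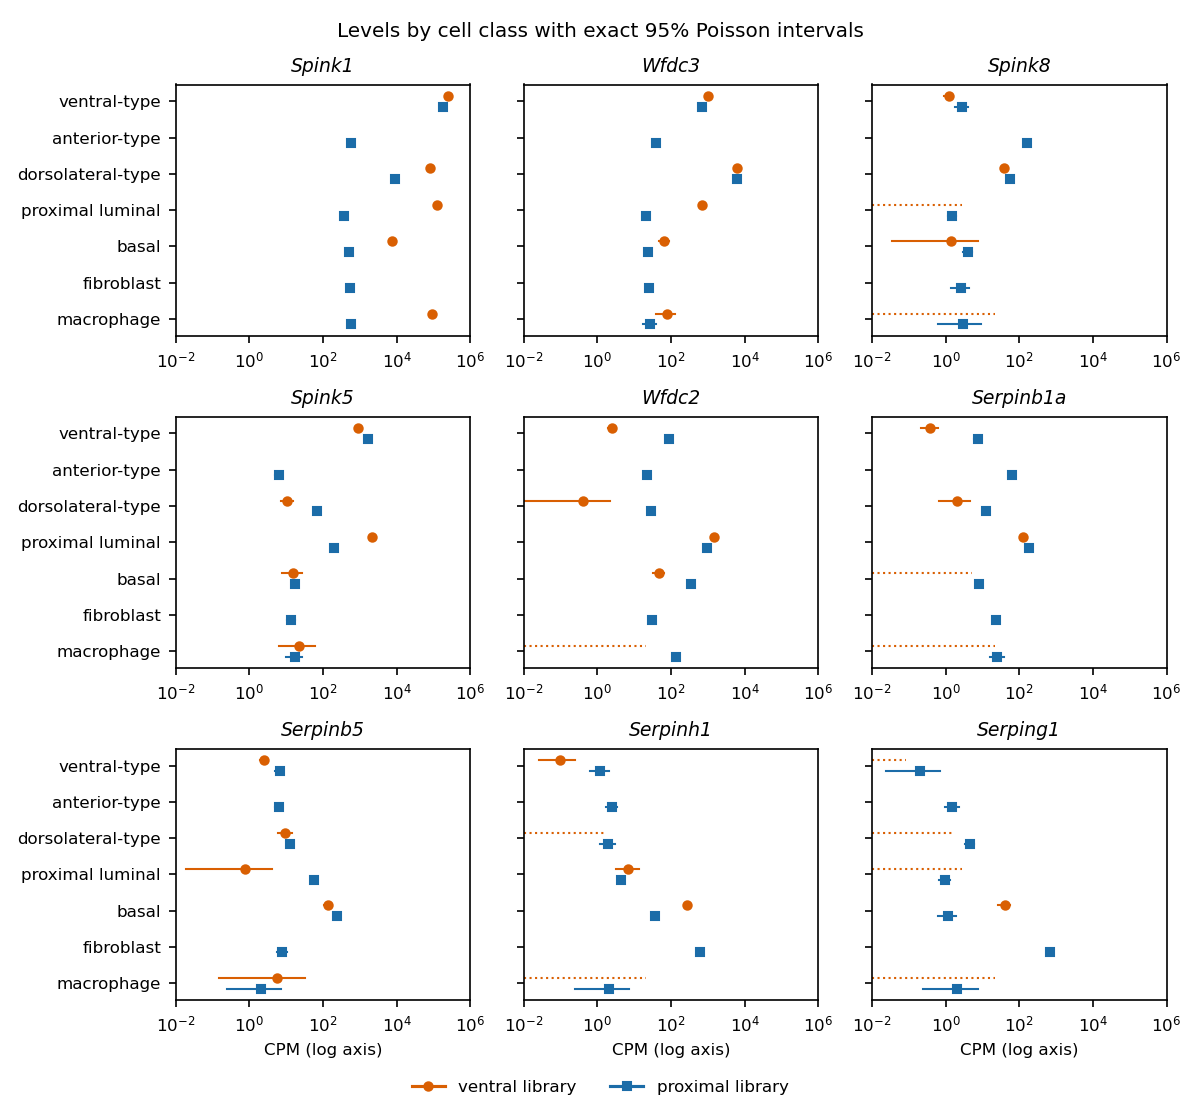
Level of 9 inhibitors (panels) in each cell class (vertical axis) as CPM on a log axis, with ventral library values as orange circles and proximal library values as blue squares. Lines are exact 95% Poisson intervals, and dotted lines end at the upper limit of a class without a UMI. Wfdc3 in dorsolateral-type cells (6315 and 6340 CPM) lies close together in the libraries. Serpinb1a in proximal luminal cells (128 and 184 CPM) differs more, with intervals that do not overlap, and Spink1 in proximal luminal cells (124983 and 385 CPM) lies far apart.

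Wfdc2, known as HE4 and widely made by ductal and airway epithelia, set proximal luminal-like cells apart from secretory luminal cells in both libraries. Its levels in the ventral and proximal libraries were 1426 CPM (1362 to 1492) and 947 CPM (937 to 956). All secretory luminal types together held 2.32 and 43.7 CPM. The proximal luminal level exceeded this 614-fold (504 to 755) and 21.7-fold (20.6 to 22.9). After thinning, a Wfdc2 UMI was found in 52.3% (41.4% to 63.0%) of the class in the ventral library and in 49.5% (46.8% to 52.2%) in the proximal one, and before thinning, at median depths of 14059.5 and 19696 UMIs, in 71.6% and 90.6%. Of macrophage-like cells, 0 of 30, which allows a share of up to 11.6%, and 6.41% (2.11% to 14.3%) had one after thinning, and 0% and 16.5% before. Of all Wfdc2 UMIs in proximal macrophage-like cells 90.8% came from 1 cell.

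Serpinb1a (chr13:32842092-32851185) was the other inhibitor past the fold in both. It held 128 CPM (109 to 149) and 184 CPM (180 to 189), which was 275-fold (174 to 456) and 6.06-fold (5.68 to 6.47) the level of secretory luminal cells. Basal-like cells had no UMI in the ventral library and 8.20 CPM in the proximal library. Reads that match both Serpinb1a and its close copies cannot be assigned from these files, and the same holds for Serpinb6a and Serpina3n.

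These were the 2 of 15 inhibitors higher in proximal luminal-like than in secretory luminal cells of the ventral library, where 1.54% of all genes were. None was lower, against 0.0451% of all genes. Wfdc2 and Serpinb1a in the proximal library were again the inhibitors past the fold, 2 of 30, against 2.11% of all genes. There 3 were lower, Spink1, Wfdc3 and Spink8, against 0.849%, and with totals without genes above 1% of UMIs the split was 1 higher and 3 lower, with Serpinb1a at 1.98 on the log2 scale against 2.27. Without the ventral proximal luminal-like cells that held over 2.5% Sbp, 2 were higher and 2 lower in the ventral library.

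The proximal luminal-like class of the proximal library held 6 clusters. Wfdc2 ran from 546 to 1680 CPM over them and Serpinb1a from 146 to 256 CPM. Spink5 ran from 56.6 to 528 CPM, with the highest value in the cluster of 187 cells led by Prol1. That cluster also held most Wfdc18, at 182 CPM, and Wfdc15b, at 110 CPM, but 1 cell gave 69.0% of the former and 49.1% of the latter. Without that cell the levels were 58.5 and 57.8 CPM, and Spink5 without its top cell was 420 CPM.

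Basal-like cells, the layer that rests on the basement membrane, were marked by Serpinb5. Serpinb5 (chr1:106861173-106883348), known as maspin, a serpin of basal and myoepithelial cells without shown protease inhibition, reached 134 CPM (108 to 163) and 240 CPM (231 to 249), ventral library first. Secretory luminal cells held 2.85 and 8.53 CPM, so that basal-like cells stood 46.9-fold (35.6 to 61.5) and 28.1-fold (24.9 to 31.8) higher. Proximal luminal-like cells had 1 UMI in the ventral library, 0.765 CPM, and 56.7 CPM (54.4 to 59.2) in the proximal library. After thinning, a Serpinb5 UMI was seen in 10.0% (5.58% to 16.2%) of ventral basal-like cells and 17.5% (15.1% to 20.1%) of proximal ones, and before it, at median depths of 4933 and 12000 UMIs, in 44.0% and 76.8%. Macrophage-like cells had one in 0 of 30 and 0 of 78 cells, which allows up to 11.6% and 4.62%, and in 3.33% and 1.27% before thinning.

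In the ventral library 3 of 16 inhibitors were higher in basal-like than in secretory luminal cells, where 3.57% of all genes were. They were Serpinb5, Serpinh1 and Wfdc2, and the 3 lower, Spink1, Spink5 and Wfdc3, compare with 1.02% of all genes. Of 27 in the proximal library 3 were higher, Serpinb5 and Wfdc2 among them, against 3.54%, and 4 were lower, the same 3 genes and Spink8, against 1.43%. Wfdc2 in proximal basal-like cells, at 348 CPM (338 to 359), was 7.98-fold (7.52 to 8.47) above secretory luminal cells, but its log2 ratio with the pseudocount moved from 2.74 to 1.96 when each cell was scaled to the same total, which ended the call, and to 3.85 without the highest doublet scores. In ventral basal-like cells it was 46.9 CPM, and its log2 ratio there went from 2.21 to 1.89 under the stricter cell filter, which ended that call.

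Against proximal luminal-like cells, 2 of 8 inhibitors were higher in ventral basal-like cells, Serpinh1 at 39.3-fold (20.3 to 87.2) and Serpinb5, with 97 UMIs against 1, at 175-fold (30.7 to 6978), against 3.32% of all genes, and 5 were lower, against 5.34%. The lower genes were Wfdc2, Wfdc3, Spink1, Spink5 and Serpinb1a. Serpinb1a, with 0 against 167 UMIs, was at least 30.9-fold lower, taking 3 UMIs over the class as the limit. Without cells over 2.5% Sbp, Wfdc3 went from -3.19 to -1.94 on the log2 scale, which ended its call. In the proximal data 0 of 30 were higher, against 0.908%, and 2 were lower, against 0.577%. These were Serpinb1a, 22.5-fold (18.4 to 27.7), and Spink5, 11.4-fold (9.96 to 13.2).

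Within the proximal basal-like class the inhibitors differed between the 3 clusters. The cluster of 225 cells led by Grp and Aqp3 held 402 CPM of Serpinb5, 924 CPM of Wfdc2 and 58.7 CPM of Serpinb8, an intracellular inhibitor of furin. It also held 35.0 CPM of Serpinb2, a plasminogen activator inhibitor, from 20 cells, and 27.3 CPM without the top cell. The other clusters, of 522 and 162 cells, held 161 and 120 CPM of Serpinb5 and 40.8 and 52.7 CPM of Wfdc2. Serpinh1 went the other way, with 13.3 CPM in the cluster led by Grp and 42.4 and 80.8 CPM in the others.

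Serpinb5, Serpinb2 and Serpinb8, the latter pair named after their values were seen, lie in this order on the plus strand of chromosome 1, and their upstream sequences are shown because all 3 were highest in that cluster among basal-like cells. No other gene of the files lies in the 54.5 kb between Serpinb2 and Serpinb8, while Serpinb5 lies 628 kb before Serpinb2. The sequences are from RefSeq on GRCm38.p6, 5′ to 3′ on the plus strand, and end at the base before the first exon. They cover chr1:106860925-106861172, chr1:107511173-107511422 and chr1:107589756-107590005. Capitals mark matches on either strand to TATAAA (the TATA box), to CCAAT (the CCAAT box), to GGGCGG (the GC box) or to AGAACA (an androgen receptor half-site), and no match overlapped another.
Serpinb5: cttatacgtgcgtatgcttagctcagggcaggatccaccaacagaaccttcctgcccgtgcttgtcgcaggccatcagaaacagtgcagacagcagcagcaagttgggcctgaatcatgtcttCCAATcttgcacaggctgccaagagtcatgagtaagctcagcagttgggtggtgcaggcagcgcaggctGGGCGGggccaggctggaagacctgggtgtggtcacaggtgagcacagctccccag
Serpinb2: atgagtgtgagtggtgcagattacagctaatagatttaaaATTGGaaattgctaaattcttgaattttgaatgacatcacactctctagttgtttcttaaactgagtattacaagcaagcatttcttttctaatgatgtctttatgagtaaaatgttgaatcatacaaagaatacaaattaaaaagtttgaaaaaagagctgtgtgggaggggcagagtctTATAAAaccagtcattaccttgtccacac
Serpinb8: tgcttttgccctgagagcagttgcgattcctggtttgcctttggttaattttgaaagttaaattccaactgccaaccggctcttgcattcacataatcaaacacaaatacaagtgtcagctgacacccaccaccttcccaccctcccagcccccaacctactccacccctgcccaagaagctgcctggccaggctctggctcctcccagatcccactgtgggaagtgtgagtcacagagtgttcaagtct
Serpinb5 held CCAAT 127 bases and GGGCGG 58 bases before the start in RefSeq, which lies 2 bases past the end of the printed sequence, since those bases are exonic in the gene annotation and were left out. Serpinb2 held TATAAA 29 bases before it and CCAAT on the minus strand 210 bases before it. Serpinb8 held none of the motifs. Of 32851 mouse promoters in windows of 250 bases, 12.4% held TATAAA, 33.8% CCAAT, 32.7% GGGCGG and 16.1% AGAACA on either strand. A match is a match of letters and no measure of binding.

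Fibroblast-like cells held the most Serpin RNA of the 6 classes of the proximal library. There 7 of 28 inhibitors were higher in them than in secretory luminal cells, where 5.72% of all genes were, and 4 were lower, against 1.42%. Serpina3n fell under the fold, from 2.09 to 1.85 on the log2 scale, with each cell scaled to the same total, and 6 were higher under the stricter cell filter. The higher genes included Serping1, Serpinh1, Wfdc1, Serpina3n, Serpinf1 and Serpini1, and the lower ones Spink1, Spink5, Spink8 and Wfdc3. The median of the 28 was -0.06 on the log2 scale, against 0.14 for all genes.

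Serping1 (chr2:84765387-84775444), the inhibitor of the complement proteases C1r and C1s, led with 697 CPM (675 to 720), 335-fold (265 to 430) above secretory luminal cells. After thinning, 48.2% (43.8% to 52.7%) of fibroblast-like cells had a Serping1 UMI, against 0 of 78 macrophage-like cells, and before it 92.2% against 2.53%. The median depth was 10314 UMIs in fibroblast-like and 11922 in macrophage-like cells. Serpinf1 (chr11:75409769-75422701), the pigment epithelium-derived factor, an antiangiogenic serpin that inhibits no protease, held 387 CPM (370 to 404) and was 131-fold (107 to 161) higher. Basal-like cells of the same library held 1.15 CPM of Serping1 and 3.85 CPM of Serpinf1.

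Serpinh1 (chr7:99345376-99353239), the collagen chaperone, held 601 CPM (580 to 622) in fibroblast-like cells, 315-fold (247 to 409) above secretory luminal cells. Its upstream sequence is shown because Serpinh1 is the leading fibroblast gene of the set that has an entry in the promoter table. It covers chr7:99353240-99353489 on the minus strand, with the same marking.
Serpinh1: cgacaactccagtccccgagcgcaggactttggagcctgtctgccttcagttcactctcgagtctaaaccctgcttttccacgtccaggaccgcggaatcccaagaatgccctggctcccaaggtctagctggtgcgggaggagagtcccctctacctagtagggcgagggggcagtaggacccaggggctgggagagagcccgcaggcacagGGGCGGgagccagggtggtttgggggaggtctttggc
It held GGGCGG 37 bases before the start and none of the other motifs.

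The lower fibroblast genes, named after their values were seen, were Wfdc1 at 82.6 CPM (75.2 to 90.6), Serpini1 at 51.9 CPM (46.0 to 58.3) and Serpina3n at 33.3 CPM (28.6 to 38.5). Wfdc1 is a protein known from prostate stroma, Serpini1 is neuroserpin, and Serpina3n is an acute-phase inhibitor of serine proteases. Wfdc1 had 11 UMIs and Serpina3n 5 UMIs in all secretory luminal cells of the proximal library. Over the 3 fibroblast clusters of 229, 195 and 92 cells, Wfdc1 stood at 149, 48.6 and 15.1 CPM and Serpina3n at 9.88, 36.3 and 82.7 CPM, so the clusters were ordered oppositely by these genes. Serping1, at 725, 513 and 1153 CPM, and Serpinf1, at 416, 295 and 574 CPM, were highest in the cluster led by Sult1e1 and Inmt, while Serpinh1 lay between 583 and 620 CPM in all 3.

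**Figure D4:**
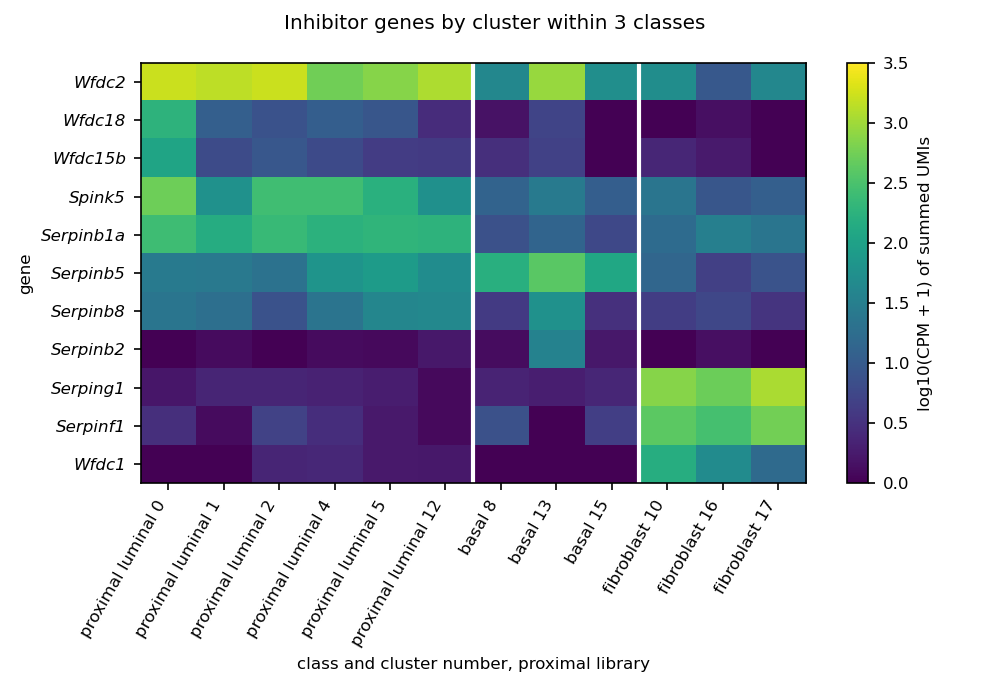
Level of 11 inhibitors (rows) in each cluster of the proximal luminal, basal and fibroblast classes of the proximal library (columns), as log10 of CPM plus 1. Among basal clusters Serpinb2, Serpinb8 and Wfdc2 are highest in cluster 13. Wfdc18 and Wfdc15b are highest in proximal luminal cluster 0, where 1 cell gave 69.0% and 49.1% of their UMIs, and Wfdc1 is highest in fibroblast cluster 10 and Serping1 in cluster 17.

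Serpinb6a, an intracellular inhibitor of cathepsin G-like proteases, was detected in all 10 classes, as was Spink1. Its levels lay between 117 CPM in ventral basal-like and 351 CPM in fibroblast-like cells. Within a class the libraries were close: 143 and 145 CPM in ventral-type, 238 and 294 CPM in dorsolateral-type, 178 and 162 CPM in the proximal luminal-like and 117 and 120 CPM in basal-like cells. The intervals overlapped in all of these but the dorsolateral type, where they ran from 219 to 258 and from 284 to 304 CPM. Macrophage-like cells held 75.1 and 44.7 CPM.

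Serpine3, Serpinc1 and Spinkl were detected at low levels, and are named after their values were seen. Serpine3 reached 32.3 CPM in proximal luminal-like and 32.2 CPM in basal-like cells of the proximal library, Serpinc1, or antithrombin, 10.5 CPM in fibroblast-like cells, and Spinkl 12.4 CPM in anterior-type cells. Serpinb8 reached 28.7 CPM and Wfdc15b 12.7 CPM in proximal luminal-like cells, 33.9% of the latter from 1 cell. Wfdc18 there stood at 22.1 CPM, and at 12.1 CPM without the cell that gave 45.4% of it.

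The libraries were then compared within classes. In ventral-type cells 1 of 18 inhibitors was higher in the proximal library, against 0.235% of all genes, and 0 were lower, against 0.0261%. The gene was Wfdc2, with 88.1 CPM against 2.43 CPM, 26.1% of the former from 1 cell. Its log2 ratio of 2.98 became 1.32 without the highest doublet scores and 1.81 under the stricter cell filter, which ended the call. For dorsolateral-type cells, a comparison added after the data were seen, 2 of 17 inhibitors were higher in the proximal library, against 0.517%. Serpine2 was higher by 29.1-fold (14.1 to 72.7) and Spink11 by 14.8-fold (7.12 to 37.0). There Spink1 was the 1 lower, 8.77-fold, against 0.0696%. Without the top cell the log2 ratio of Spink11 went from 2.01 to 1.82, and with totals without genes above 1% of UMIs 3 were higher and 1 lower.

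Of 25 inhibitors tested in proximal luminal-like cells, 1 was higher in the proximal library, against 1.74% of all genes, and 3 were lower, against 0.471%. Serpinb5 was higher, with 2218 UMIs against 1, a ratio of 74.2 (13.3 to 2933). Spink1, Wfdc3 and Spink5 were lower, 325-fold (319 to 330), 31.6-fold (28.7 to 34.7) and 11.1-fold (10.6 to 11.5). Without cells over 2.5% Sbp all 3 stayed lower past the fold, but the log2 ratios moved from -8.31 to -6.83 for Spink1 and from -4.45 to -3.09 for Wfdc3. After subtraction of 5% of free RNA they were -13.5 and -6.03. With totals without genes above 1% of UMIs the split was 2 higher and 3 lower. In basal-like cells 1 of 18 was higher, Wfdc2 at 7.43-fold (5.31 to 10.7), against 3.26%, and 2 were lower, Spink1 at 14.8-fold (14.3 to 15.4) and Serpinh1 at 7.32-fold (6.16 to 8.68), against 0.435%. Of the 4248 Wfdc2 UMIs of proximal basal-like cells, 3905 came from the cluster led by Grp and Aqp3, at 924 CPM. The other proximal basal-like clusters held 40.8 and 52.7 CPM, near the 46.9 CPM of ventral basal-like cells. With each cell scaled to the same total, Wfdc2 went from 2.66 to 1.96 on the log2 scale and the split was 0 higher and 2 lower. After subtraction of 5% of free RNA the log2 ratio of Spink1 in basal-like cells went from -3.87 to 0.

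Serpinh1 held 270 CPM (234 to 311) in ventral and 36.9 CPM (33.6 to 40.5) in proximal basal-like cells, and the part of the fibroblast marker sum of 5325 CPM in the former was not tested. All 7 markers had UMIs in both. The ventral cells also held 40.0 CPM of Serping1 and 20.7 CPM of Serpinf1, against 1.15 and 3.85 CPM, but Serping1 was found in 5 of the 141 cells, with 62.1% of its 29 UMIs from 1 cell, and 26.7% of the 15 UMIs of Serpinf1 came from 1 cell. At least 2 collagen UMIs were found in 4 of 141 ventral and 6 of 909 proximal basal-like cells, and leaving these cells out, a choice made after seeing the data, left 1 higher and 2 lower between the libraries. Over all secretory luminal cells 3 of 27 inhibitors were higher in the proximal library, Serpine2, Spink8 and Wfdc2, against 0.888%, and 1 was lower, Spink1, against 0.0376%, or 4 and 1 with totals without genes above 1%. Without the top cell Wfdc2 fell under the fold there, from 2.12 to 1.95 on the log2 scale, and it was 1.14 without the highest doublet scores. The stricter cell filter ended the call of Spink1, which went from -2.11 to -1.96, and that of Wfdc2. The anterior type, with 380 of 703 proximal cells, was not found in the ventral library.

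**Figure D5:**
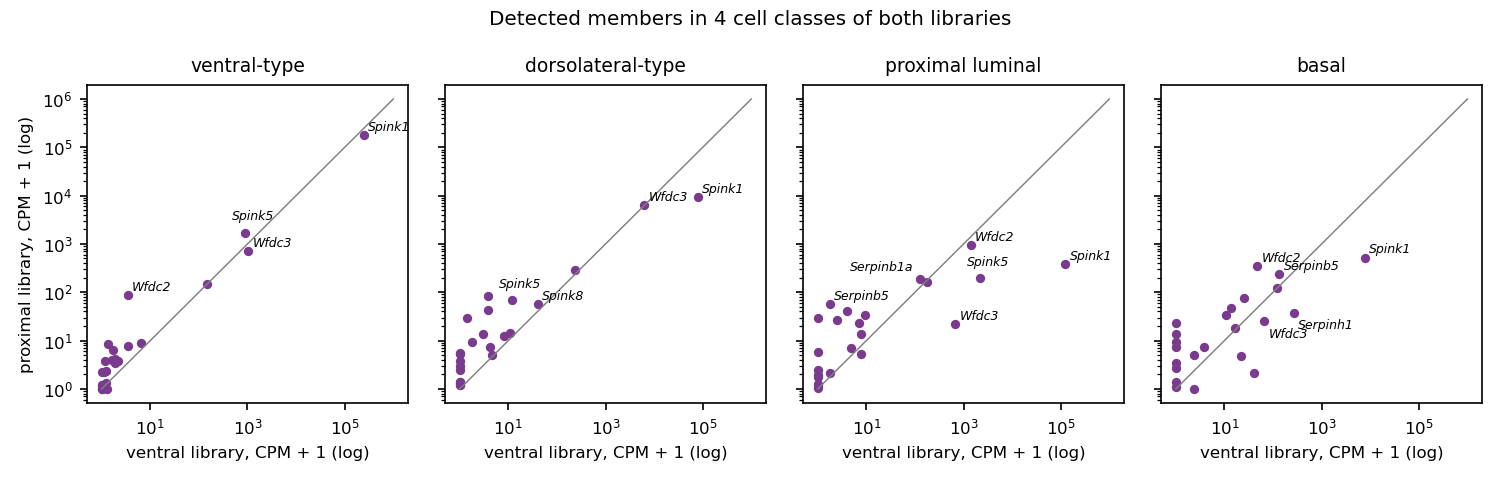
Level of the detected inhibitors described in the text in the ventral (horizontal) and proximal (vertical) library within 4 cell classes (panels), as CPM plus 1 on log axes, with the line of equal levels. Points lie near the line for Wfdc3 in dorsolateral-type cells (6315 and 6340 CPM) and far below it for Spink1 in proximal luminal (124983 and 385 CPM) and basal cells (7732 and 521 CPM).

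Other genes of the pathway were followed as 76 proteases that serine protease inhibitors meet or resemble and 34 inhibitors of other families, 33 of them in the files. In fibroblast-like against secretory luminal cells, 8 of 27 proteases were higher, where 5.72% of all genes were, and these included Mmp2 at 369 CPM, a gelatinase, Plat at 249 CPM, the tissue plasminogen activator, and the complement proteases C1s1 at 192 CPM and C1ra at 115 CPM. The last pair are enzymes whose inhibitor, Serping1, was higher in the same cells. Mmp7 and Tmprss2 were lower, where 1.42% of all genes were. Of 20 other inhibitors 7 were higher, among them Pi15 at 198 CPM and Timp2 at 788 CPM, a metalloproteinase inhibitor, and 2 were lower, Spint2 and Timp4.

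Between proximal luminal-like and secretory luminal cells of the proximal library, 2 of 30 proteases were higher, Prss22 and Prss23, and 4 of 17 other inhibitors, Anxa2, Cast, Timp3 and Timp2, where 2.11% of all genes were. Of the ventral library, 1 of 15 proteases was higher, the membrane protease Tmprss2, and 3 of 15 inhibitors, Timp3, Timp2 and Anxa2, where 1.54% of all genes were. No gene of either list was lower in these 2 comparisons. In basal-like against secretory luminal cells 2 of 28 proteases were higher in the proximal library, Ctsl and Prss23, against 3.54% of all genes, with 1 lower, Mmp7, against 1.43%. In the ventral lobes 2 of 15 were higher, Prss23 and Ctsb, against 3.57%. Anterior-type cells held 2604 CPM of Mmp7, a matrix metalloproteinase, against 31.1 CPM in ventral-type cells, and 3 of 17 proteases were higher there, against 1.79% of all genes. Between dorsolateral-type and ventral-type cells 0 of 17 proteases passed the fold in the proximal library, where 1% of all genes were higher and 0.209% lower, and of the other inhibitors Cst3 was higher and Csta1 lower in both libraries, which are cystatin-type inhibitors of cysteine proteases.

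The Wfdc genes of chromosome 2 form a group at chr2:164176327-164745931, 570 kb that hold 35 genes of the files, 14 of them members. Neighbours there peaked in different classes. Wfdc15b was highest in seminal vesicle epithelium-like cells, at 4189 CPM in 26 cells. Wfdc2 (chr2:164562413-164568510), 341 kb farther along, was highest in proximal luminal-like cells of both libraries. Wfdc3 (chr2:164731180-164745931), a further 163 kb on and separated from Wfdc2 by 12 genes, was highest in dorsolateral-type cells of both. Slpi, an elastase inhibitor of the same fold that the symbol rule does not take in, peaked in proximal luminal-like cells of the proximal library at 128 CPM.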

How the data were processed

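Prostate cells were dissociated with papain and TrypLE and run on the 10x Genomics platform, per the labels' protocols. The deposited values are raw counts of UMIs for each barcode and gene, which the authors made with Cell Ranger 7.0.0 on mm10, per the submitters' processing notes. All 93 members and 32158 of 32285 gene identifiers matched GENCODE M21 on GRCm38, from which gene coordinates come. The members and lists were chosen with earlier results of these data known.

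Barcodes with fewer than 500 genes or over 10% mitochondrial UMIs were removed, 226 ventral and 635 proximal. Scrublet called 7 of 1995 and 4 of 3709 cells doublets. At under 0.5% the caller has not worked, so doublets are largely still present. Cells were clustered with scanpy 1.11.5 (2000 variable genes without members, 30 principal components, 15 neighbours, Leiden resolution 1, seed 0) into 12 and 22 clusters. A cluster took the class whose markers stood highest above the other clusters, with at least 3 markers found in 25% of its cells. This scoring was set after clusters had been seen. A ventral cluster of 69 cells stayed unnamed.

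UMIs were summed per class and scaled to CPM. Intervals are Poisson for levels, conditional on the total for ratios, and Clopper-Pearson for shares, computed with scipy 1.17.1. Levels of different genes come from 3' UMIs and were not divided by length. Named are the 5 detected members with the highest CPM per class and up to 4 per direction and comparison past 4-fold of CPM plus 10. Spink1 was always named. Other names were chosen after their values were seen. The values of 1 detected member are not reported here, although the counts of members include it. In simulations with 200 genes changed 8-fold, all higher and between 34% and 49% of lower genes passed the fold in the 5 comparisons simulated, and 0% of unchanged genes did. Of the 24 detected members, 15 had a promoter entry in the RefSeq table. Alternatives covered the cell filter, doublets, resolution, seed, variable genes, free RNA, cells with much Sbp, scaling, UMI minimum, pseudocount, fold, thinning and the top cell. Totals without genes above 1% of UMIs, and basal-like cells without collagen UMIs, were added after seeing the data.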

Additional observations from a re-analysis of the deposited data

Results flagged for a closer look

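The difference between proximal luminal-like and secretory luminal cells in Spink5 had opposite signs in the libraries. In the ventral library proximal luminal-like cells held 2155 CPM and secretory luminal cells 826 CPM, a ratio of 2.61 (2.51 to 2.71). In the proximal library the levels were 195 and 533 CPM, a ratio of 0.366 (0.356 to 0.376). The difference between the ratios was not tested, since each region has 1 library. The secretory class was mostly ventral-type in the ventral library, 1538 of 1634 cells, while 162 of 703 cells were ventral-type in the proximal library.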

How the results depend on the processing

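No paired analysis was possible because each region has 1 library. The number of detected members stayed within 1.5 times of 9 and 24 under all 11 settings tried, at 7 to 12 in the ventral and 21 to 24 in the proximal library. Of 219 counts of members past the fold 199 stayed within 1.5 times. With a pseudocount of 1 CPM the counts, both directions together, were 10 for proximal luminal over secretory luminal, 13 for basal over secretory luminal and 7 for basal over proximal luminal in the proximal library. Between libraries they were 9 in secretory luminal, 2 in ventral-type, 7 in dorsolateral-type, 10 in proximal luminal and 8 in basal cells. At 2-fold they were 4 (ventral) and 12 (proximal) for proximal luminal over secretory luminal, 15 for basal over secretory luminal and 8 for basal over proximal luminal in the proximal library, and between libraries 7, 5, 9 and 10 in secretory luminal, dorsolateral-type, proximal luminal and basal cells. The stricter cell filter left 2 between libraries in secretory luminal and 0 in ventral-type cells, and removing the highest doublet scores also left 0 in the latter. Without cells over 2.5% Sbp the count for proximal luminal over secretory luminal in the ventral library was 4. The shares of all genes at these settings are not given here, and a smaller pseudocount or fold raises them too. These counts therefore show how the calls depend on the settings and are no result about the inhibitors. Only the 71 log2 ratios past the fold in the main run were followed, so a change of sign was unlikely from the start. Of their 897 values under other settings 0 changed sign, but 230 lay outside the counting interval of the reported value, as did 121 of 140 shares of cells taken without thinning or at 500 UMIs. The Wfdc18 ratio of anterior-type over ventral-type cells went from 2.18 to 0.06 without the highest doublet scores. Ventral proximal luminal comparisons have no value under the stricter filter, which left 17 such cells, or at resolution 2, which left 43.

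Depth limits small classes: 3 UMIs stand for 4.14 CPM in ventral basal-like, 17.3 CPM in ventral macrophage-like and 13.9 CPM in proximal T or NK-like cells. Counting intervals leave out differences between animals, dissections and preparations, which 2 libraries cannot show.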

Other observations

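Classes outside the comparisons carried inhibitors of their own. The 26 seminal vesicle epithelium-like cells of the proximal library, led by Svs5, held 27972 CPM of Spinkl, a Kazal-type gene that stayed at or under 12.4 CPM in the 6 classes described above. They also held 4189 CPM of Wfdc15b, 631 CPM of Serpine2 and 312 CPM of Spink8, so that Serpine2 and Spink8, the genes of the anterior and dorsolateral types, were higher in these cells than in either type. Macrophage-like cells held 393 CPM of Wfdc17 in the ventral and 366 CPM in the proximal library, and 239 CPM of Serpinb9, the granzyme B inhibitor, in the latter. The 27 T or NK-like cells of the proximal library held 418 CPM of Serpinb9 and 279 CPM of Serpinb6b. Endothelial-like cells held 228 CPM of Serpinh1 and 266 CPM of Serpinb6a.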
